A study of Rattus norvegicus with 22 samples.

Results

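The myelin genes described here are Mbp, Mobp, Mog, Mag, Cnp, Cldn11, Mal, Ugt8 and Padi2, a list of 9 genes chosen by name as genes of mature oligodendrocytes. All 9 were among the 17172 genes of the count table, and all 9 were among the 12875 genes with enough counts to be tested. RNA was sequenced from bulk hippocampus on the injured side of adult male Sprague-Dawley rats, after moderate lateral fluid percussion, a pressure pulse to the exposed dura that models traumatic brain injury (TBI), or after sham surgery. Sham rats went through anesthesia and surgery but received no pulse, and no allele or drug distinguished the groups. Day 1 was represented by 2 sham and 4 TBI rats, and day 14 by 4 of each kind. Each rat gave 1 sample, and total counts per sample lay between 15065540 and 23743703.

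Oligodendrocytes wrap axons in myelin, a stack of compacted membrane that speeds conduction and supports the axon. Mbp seals the cytoplasmic faces of that membrane, and its mRNA, like that of Mobp, is carried out into the cell's processes to be translated there. Mog and Mag are surface proteins of the sheath, Cnp and Cldn11 belong to its cytoplasmic channels and its tight junctions, and Mal carries membrane cargo to it. Ugt8 makes galactosylceramide, the typical lipid of myelin, and Padi2 converts arginine to citrulline in proteins that include Mbp.

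The 9 genes together took between 0.350% and 1.91% of all counts in a sample, and each was detected in all 14 samples. The lowest single value was 621 counts, for Padi2. The tissue therefore contained transcripts of mature oligodendrocytes in every group. Levels are given as log2 CPM (CPM, counts scaled to a common library size with TMM factors, with a prior count of 2), so a difference of 1 is a doubling, and a higher level of one gene than of another is not read as more transcript, since gene length was not taken into account. A call means an adjusted p under 0.05 in edgeR's quasi-likelihood test, adjusted by Benjamini-Hochberg over all tested genes.

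At day 1, all 9 myelin genes had a negative log2 fold change in TBI vs sham of the same day, with a median of -0.78, whereas the median of all tested genes was -0.02. Called lower were 4 of them, Mal, Padi2, Ugt8 and Cnp, while 7.93% of all tested genes were called lower. None was called higher, against 11.2% of all tested genes; limma-voom and DESeq2 also called 0 higher. At an unadjusted p under 0.05, 6 were lower and 0 higher, beside 17.0% and 17.4% of all tested genes. In 5 of the 9 genes every TBI sample was below both sham samples, which was so for 14.1% of all tested genes. In bulk tissue, fewer oligodendrocytes and less RNA per oligodendrocyte cannot be told apart. The plot of levels by sample shows each gene in each rat.

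**Figure D1:**
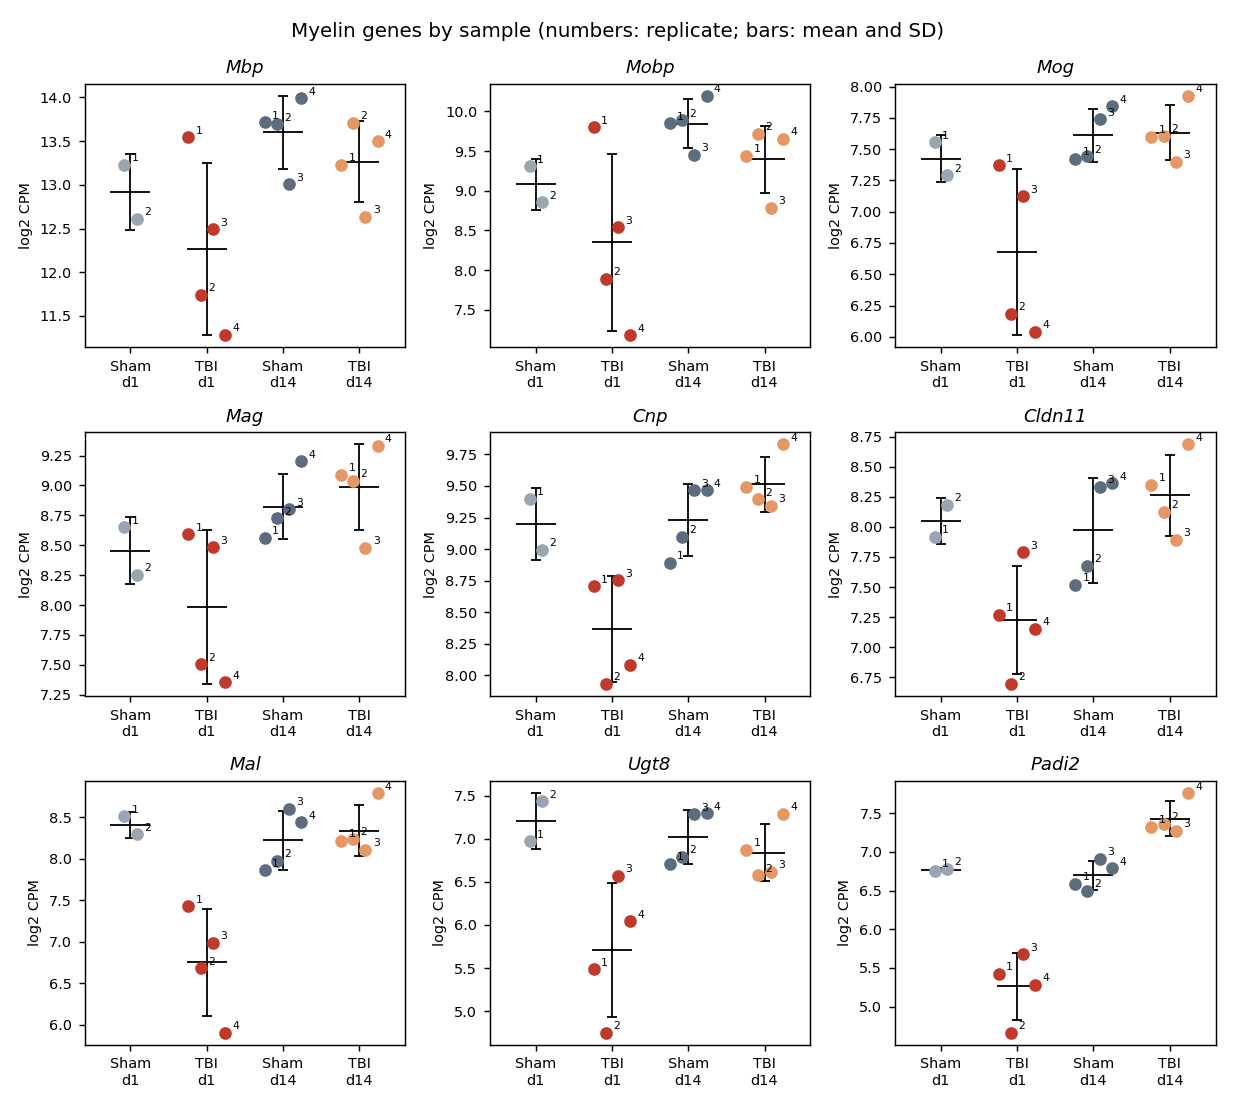
Levels of the 9 myelin genes in log2 CPM on the vertical axis, for the 4 groups on the horizontal axis. Points are samples, numbers beside them are replicate numbers, and bars give the mean and SD; each panel has its own scale, so heights are not comparable between genes. Padi2 lies lower in TBI day 1 and higher in TBI day 14 than in any sham sample, while replicate 1 of TBI day 1 stands at the sham level for Mbp and Mobp.

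Padi2, the citrullinating enzyme, was at 5.43, 4.66, 5.68 and 5.29 log2 CPM in TBI day 1 replicates 1 to 4, and at 6.75 and 6.78 in sham day 1. No TBI value reached a sham value. The mean was 39.5 ± 10.8 CPM (SD, n = 4) after TBI and 109 ± 1.58 CPM (SD, n = 2) in sham. The log2 fold change was -1.46 (SE 0.21, edgeR adjusted p = 0.000338), and the call was kept in each of the 14 fits that left out a sample.

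Mal, the membrane-sorting proteolipid, was at 7.43, 6.68, 6.99 and 5.90 log2 CPM in the TBI day 1 replicates and at 8.52 and 8.30 in sham day 1. Here too the groups did not overlap, and replicate 4 was the lowest. Mal had the most negative log2 fold change of the 9 genes, -1.56 (SE 0.31, edgeR adjusted p = 0.00335), and it was called in all 14 leave-one-out fits. Ugt8, the galactosylceramide synthase, was at 5.48, 4.75, 6.57 and 6.04 log2 CPM in the TBI day 1 replicates and at 6.97 and 7.43 in sham day 1. Its lowest TBI sample was replicate 2 and its highest replicate 3, an order unlike that of Mal. The log2 fold change was -1.36 (SE 0.35, edgeR adjusted p = 0.0155); the call was lost without sham day 1 replicate 2 (adjusted p = 0.163) and in a fit of only the 6 samples of day 1 (adjusted p = 0.102).

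Cnp, the cyclic nucleotide phosphodiesterase of myelin, was at 8.70, 7.93, 8.75 and 8.08 log2 CPM after TBI and at 9.397 and 8.996 in sham day 1. The groups did not overlap, and the log2 fold change was -0.80 (SE 0.24, edgeR adjusted p = 0.0329). That call was lost without either sham day 1 sample, without TBI day 1 replicate 2 or 4, and with the level of choroid plexus genes added to the model, with adjusted p-values up to 0.176 without 1 sample and 0.063 with that term. Cldn11, the claudin of myelin tight junctions, was also lower in every TBI day 1 sample (6.69 to 7.79 log2 CPM) than in sham day 1 (7.92 and 8.19), but with a log2 fold change of -0.78 and an edgeR adjusted p of 0.0737 it missed the threshold. Without TBI day 1 replicate 3, Cldn11 reached an adjusted p of 0.0277, and with the choroid plexus term 0.0397.

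The structural and surface genes Mbp, Mobp, Mog and Mag were not called at day 1, and in each of them TBI and sham overlapped. Mbp was at 13.54, 11.74, 12.49 and 11.29 log2 CPM in the TBI day 1 replicates and at 13.23 and 12.61 in sham day 1. TBI replicate 1 was above both sham samples, and replicates 2, 3 and 4 were below both. The log2 fold changes were -0.42 for Mbp (SE 0.48, edgeR adjusted p = 0.567), -0.42 for Mobp (SE 0.49, adjusted p = 0.588), -0.64 for Mog (SE 0.30, adjusted p = 0.142) and -0.38 for Mag (SE 0.32, adjusted p = 0.435). For Mbp, Mobp and Mag, these standard errors leave room for no change as well as for a fall like that of Cnp. Mog had an unadjusted p of 0.0483 in edgeR. Without TBI day 1 replicate 1, the number of members called lower rose from 4 to 6, with Mog and Mobp added. The log2 fold change of Mobp became -1.13 in that fit (edgeR adjusted p = 0.0301). The share of all tested genes called in that fit is not given here. The rise is therefore not read as particular to the myelin genes.

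**Figure D2:**
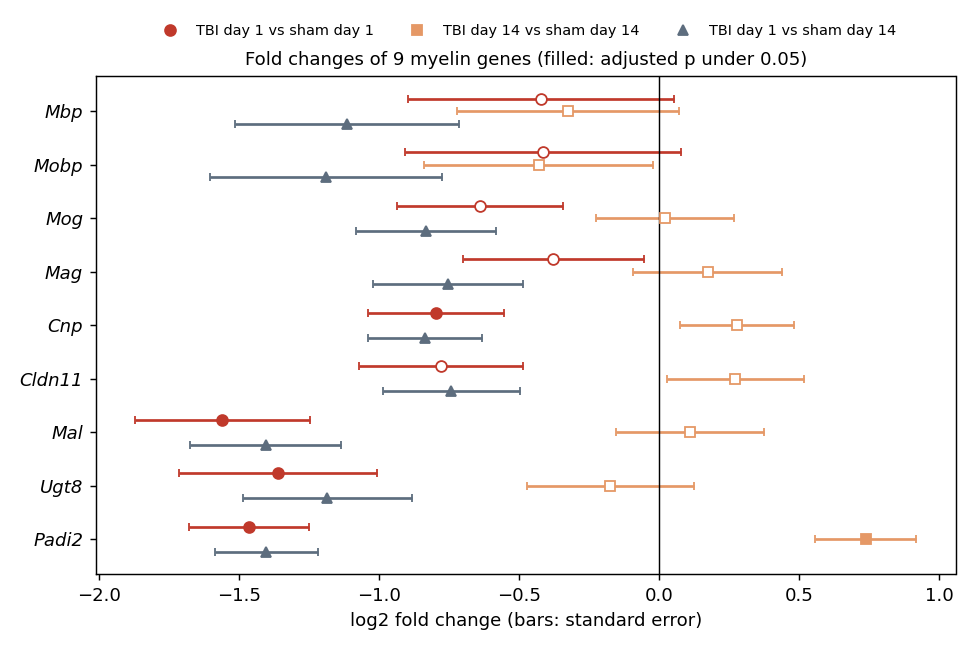
Log2 fold changes of the 9 myelin genes on the horizontal axis in 3 comparisons, with bars for the standard error; filled symbols have an adjusted p under 0.05 in edgeR. All 9 values lie below 0 for TBI day 1 against either sham group, and at day 14 Padi2 is the filled symbol, at 0.74.

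The TBI day 1 samples also differed more among themselves than those of the other groups of 4. The range of log2 CPM was widest in TBI day 1 for 9 of the 9 genes, which was also so for 70.7% of all tested genes. For Mbp the highest TBI day 1 sample was 4.78-fold above the lowest, and for Mobp 6.15-fold, compared with 1.98-fold and 1.68-fold within sham day 14. The median range of the 9 genes was 1.33 log2 units in TBI day 1, 0.64 in sham day 14 and 0.71 in TBI day 14.

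Within that spread the genes did not keep the same order. In TBI day 1, Mbp, Mobp, Mog, Mag and Mal were highest in replicate 1 and lowest in replicate 4, whereas Cnp, Cldn11, Ugt8 and Padi2 were highest in replicate 3 and lowest in replicate 2. Relative to the sham day 14 mean, replicate 1 was at -0.06 log2 units for Mbp and -0.05 for Mobp, but at -1.53 for Ugt8 and -1.27 for Padi2. Replicate 4 showed the opposite arrangement, with -2.31 for Mbp and -2.67 for Mobp beside -0.98 for Ugt8 and -1.41 for Padi2. Mbp and Mobp were the least changed of the 9 in replicate 1, followed by Mag at -0.23 and Mog at -0.24. Together with Mal at -2.32, they were the most changed in replicate 4. This grouping was noticed in the data and not tested, and the place of the mRNA within cells was not measured.

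**Figure D3:**
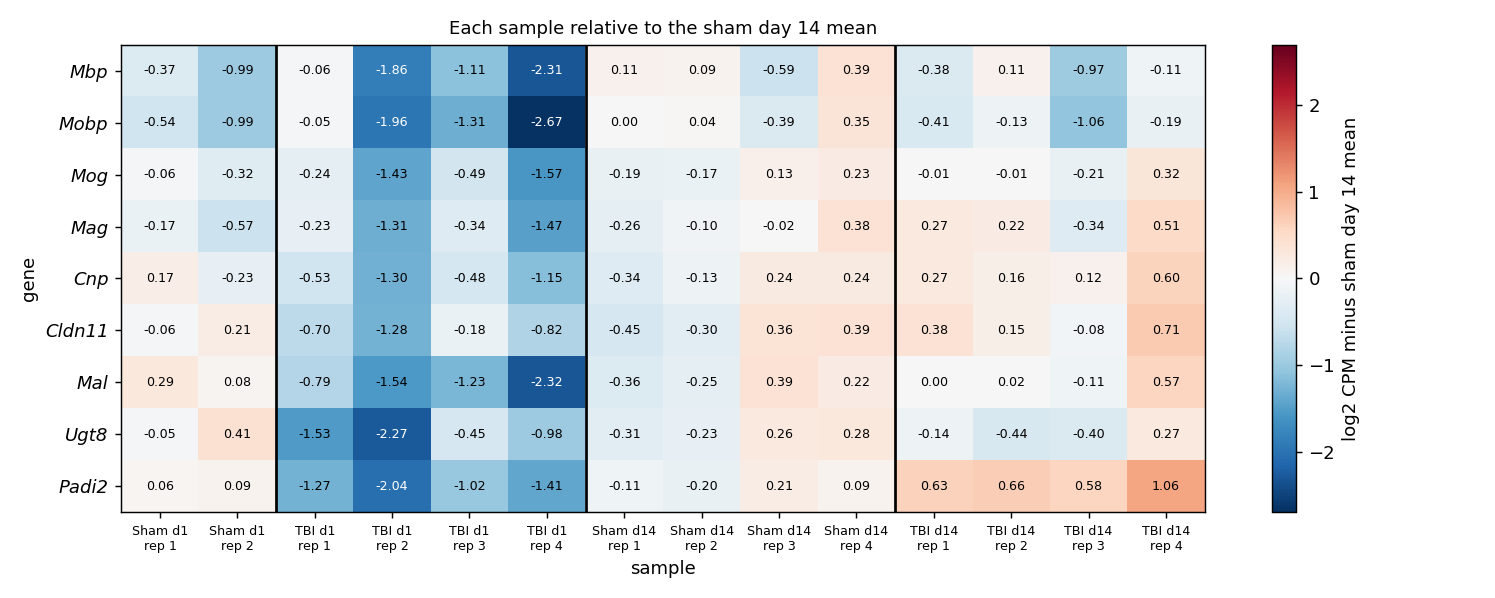
Level of each myelin gene (rows) in each of the 14 samples (columns) as log2 CPM minus the mean of the 4 sham day 14 samples; blue is lower, red is higher, and black lines part the groups. TBI day 1 replicate 1 is near 0 for Mbp and Mobp and at -1.53 for Ugt8, and Padi2 is between 0.58 and 1.06 in every TBI day 14 sample.

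The difference between the levels of a pair of genes within a sample shows the same arrangement, and is free of the scaling of that sample. The log2 CPM of Mbp minus that of Mobp stayed between 3.55 and 4.11 over the 14 samples (SD 0.13). Mbp minus Ugt8 ran from 5.18 to 8.06 (SD 0.79), with the highest value in TBI day 1 replicate 1, and from 5.25 to 8.06 within TBI day 1 alone. Mog minus Mag had an SD of 0.16 and Cldn11 minus Ugt8 of 0.36. The spread of such a difference does not depend on gene length, and the pairs were picked after their values were seen.

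Markers of other cells moved in the same samples, where 7.93% of all tested genes were called lower and 11.2% higher at day 1. At day 1 the log2 fold changes of 12 of 12 neuron markers were negative and 4 were called lower, with a summed level of 5272 to 11790 CPM in TBI day 1 and 14140 to 18310 in sham day 1; none of these markers was at 0 in any sample. The mean centred log2 CPM of the neuron markers was -1.30 in TBI day 1 replicate 1, the sample with the highest Mbp of that group, and between -0.24 and -0.05 in the other TBI day 1 samples. All 8 tested markers of macrophages and neutrophils were called higher at day 1, from a summed 43.3 to 70.9 CPM in sham to 336 to 640 CPM in TBI, with S100a8 at 0 counts in 3 samples and Mpo in 2. Their part in the values of the myelin genes was not tested.

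Promoter sequences were available for 8 of the 9 genes in RefSeq, on the build GRCr8, which is not the rn5 build of the counts. The start sites used for Mag and Mobp lay inside the gene spans of that build (95275728 to 95291133 and 128747117 to 128777238). The bases searched for these genes therefore overlap the genes in part. Mbp had more than 1 start site. The 250 bases before the start site were searched on both strands for 6 motifs: ACAAAG and ACAATG, which are SOX core sites, CTGGCAC and CTGGTAC, which are sites of the myelin regulator MYRF, and CAGCTG and CATCTG, which are E-boxes of the OLIG2 type. CTGGCAC was found in Mag, Cnp and Mal, and in 3.78% of all 33469 promoters. These 3 are shown because they share it although Mal and Cnp were called at day 1 and Mag was not. Capitals mark CTGGCAC or its reverse complement, and each sequence is written 5′ to 3′ on the strand of the gene.
Mag (chr1:95291045-95291294, minus strand): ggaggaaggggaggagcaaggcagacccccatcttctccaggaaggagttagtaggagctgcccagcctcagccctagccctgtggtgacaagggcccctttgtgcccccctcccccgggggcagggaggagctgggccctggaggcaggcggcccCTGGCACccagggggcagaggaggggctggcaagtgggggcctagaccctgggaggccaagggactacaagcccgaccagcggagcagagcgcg
Cnp (chr10:86011254-86011503, plus strand): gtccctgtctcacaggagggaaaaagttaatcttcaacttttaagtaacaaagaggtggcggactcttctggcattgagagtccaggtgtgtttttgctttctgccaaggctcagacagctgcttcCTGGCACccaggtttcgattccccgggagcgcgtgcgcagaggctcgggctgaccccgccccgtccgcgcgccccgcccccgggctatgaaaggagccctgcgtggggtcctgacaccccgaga
Mal (chr3:135341424-135341673, minus strand): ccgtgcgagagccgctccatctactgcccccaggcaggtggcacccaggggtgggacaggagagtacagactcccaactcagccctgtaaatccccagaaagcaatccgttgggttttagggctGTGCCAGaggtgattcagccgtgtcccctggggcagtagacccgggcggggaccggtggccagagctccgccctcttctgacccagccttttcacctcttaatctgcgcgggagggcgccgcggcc

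The Mobp promoter is shown for another reason: it held 8 matches of ACAAAG, here as the reverse complement CTTTGT in capitals, of which 1 or more was present in 16.3% of promoters and 8 or more in 0.00598% (2 promoters, that of Mobp included).
Mobp (chr8:128746982-128747231, plus strand): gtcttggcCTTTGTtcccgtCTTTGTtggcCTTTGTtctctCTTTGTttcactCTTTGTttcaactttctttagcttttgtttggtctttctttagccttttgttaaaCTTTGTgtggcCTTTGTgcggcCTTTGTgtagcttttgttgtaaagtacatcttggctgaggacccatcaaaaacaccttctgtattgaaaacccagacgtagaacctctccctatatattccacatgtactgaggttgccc
None of the matches in capitals overlapped a match of another motif searched. Ugt8 and Padi2, both called at day 1, held none of the 6 motifs in this window. ACAAAG was also found in Mag, Cnp and Mbp, CTGGTAC in Cldn11, CAGCTG in Cnp and Mbp, and ACAATG and CATCTG in Mbp. The Mbp matches all lay before the same start site. ACAATG was present in 11.1% of all promoters, CTGGTAC in 1.78%, CAGCTG in 12% and CATCTG in 14%. A match is a description of the letters, and binding was not measured.

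Sham day 1 was represented by a pair of samples, so the same TBI samples were also set against sham day 14, a comparison in which day differs as well as injury. All 9 genes were called lower, where 21.0% of all tested genes were called lower and 25.0% higher. The log2 fold changes ran from -0.74 for Cldn11 (SE 0.24, edgeR adjusted p = 0.0226) to -1.41 for Mal (SE 0.27, adjusted p = 0.000717), with Padi2 at -1.40 (SE 0.19, adjusted p = 3.22e-05) and Mbp at -1.12 (SE 0.40, adjusted p = 0.033). Leaving out 1 sample gave 5 to 9 called genes, with 5 without TBI day 1 replicate 2, TBI day 1 replicate 4 or sham day 14 replicate 4. A fit of only these 8 samples called 6, without Mbp, Mag and Mobp (adjusted p = 0.0652, 0.0565 and 0.0655). This comparison shares the TBI day 1 samples with the one above, so it is not a second, separate result.

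Between the sham groups, 0 of the 9 genes were called by edgeR, limma-voom or DESeq2, while among all tested genes the earlier shams had 7.88% called lower and 11.3% called higher. At an unadjusted p under 0.05 there were 0 members, beside 15.4% of tested genes lower and 19.4% higher. The values nevertheless ran low for Mobp and Mbp: Mobp was at 9.31 and 8.85 log2 CPM in sham day 1 and at 9.85, 9.89, 9.45 and 10.20 in sham day 14, without overlap, as was so in this direction for 20.1% of all tested genes. The log2 fold change of Mobp was -0.77 (SE 0.52, edgeR adjusted p = 0.308; 0.0411 in a fit of only these 6 samples), and that of Mbp was -0.69 (SE 0.50, adjusted p = 0.345). For Padi2 it was 0.06 (SE 0.22, adjusted p = 0.877).

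At day 14, 8 of the 9 genes were not called in TBI vs sham of that day, and Padi2 was called higher. The background was 4.07% of tested genes called higher and 0.365% called lower, and 0 members were called lower by edgeR, limma-voom or DESeq2 or at an unadjusted p under 0.05. Padi2 was at 7.33, 7.36, 7.27 and 7.76 log2 CPM in TBI day 14 and at 6.59, 6.50, 6.91 and 6.79 in sham day 14. Every TBI value was above every sham value of either day, as in 5.44% of all tested genes. The mean rose from 104 ± 13.6 CPM (SD, n = 4) to 174 ± 28.6 CPM (SD, n = 4), which is 0.74 on the log2 scale (SE 0.18, edgeR adjusted p = 0.0289). The size moved little when a sample was left out, from 0.62 to 0.81, but the call was lost in 6 of 14 such fits (each without replicate 1, 2 or 4 of either sham or TBI at day 14), with adjusted p-values up to 0.123.

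Padi2 is made by other glia and by myeloid cells as well as by oligodendrocytes. At day 14, 9 of 10 microglia markers were called higher, beside 4.07% of all tested genes. The summed level of these markers was 1196 to 2148 CPM in TBI and 559 to 714 in sham, and none was at 0 in any sample. The sample with the highest Padi2, replicate 4 of TBI day 14, also had the highest mean of the microglia markers (1.21 centred log2 units). It was highest too for the 9 myelin genes, Padi2 included (0.75), and for the other genes of mature oligodendrocytes (0.57). Within TBI day 14 it was also highest for markers of astrocytes (0.27), macrophages and neutrophils (0.65) and oligodendrocyte precursors (0.40). It was not highest there for neurons (-0.02) or for endothelium and pericytes (0.01). At day 1, when Padi2 fell, 4 of the 10 microglia markers were called higher and 2 lower, beside 11.2% and 7.93% of all tested genes. The part of any of these cell types in the Padi2 level was not tested. Of the other peptidylarginine deiminases, Padi1 and Padi6 had at most 1 count in any sample, Padi3 had 1 to 29 and Padi4 0 to 23; Padi3 and Padi4 were at 2.23 and 3.96 on the log2 scale against sham at day 1, without a call (edgeR adjusted p = 0.0892 and 0.0574), and were not called at day 14 (0.973 for each). In TBI day 1 vs sham day 14 both were called higher, at 2.17 and 2.63 (adjusted p = 0.0188 and 0.0288), and in TBI day 14 vs TBI day 1 both were called lower, at -1.98 and -2.94 (adjusted p = 0.0306 and 0.0234).

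The remaining members had log2 fold changes at day 14 between -0.43 for Mobp (SE 0.41) and 0.28 for Cnp (SE 0.20). Mbp was at 13.23, 13.71, 12.63 and 13.50 log2 CPM in TBI day 14 and at 13.71, 13.69, 13.01 and 13.99 in sham day 14, and the log2 fold change was -0.33 (SE 0.40, edgeR adjusted p = 0.855). Mal, which had the most negative value at day 1, was at 8.22, 8.24, 8.11 and 8.79 in TBI day 14 and 7.86, 7.98, 8.61 and 8.44 in sham day 14, which gave 0.11 on the log2 scale (SE 0.27, adjusted p = 0.942). The TBI and sham samples of day 14 overlapped for all members except Padi2.

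The TBI effect differed between the days, in a test of the difference itself, for 2 of the 9 genes. The value at day 1 minus that at day 14 was -2.20 for Padi2 (SE 0.28, edgeR adjusted p = 0.00105) and -1.67 for Mal (SE 0.41, adjusted p = 0.0371); 1.44% of tested genes were called with a lower effect at day 1 and 2.24% with a higher one. The Padi2 call was kept in all 14 leave-one-out fits, and the Mal call in 3 of them, those without TBI day 1 replicate 1 or 4 or sham day 14 replicate 3. For Cnp the difference was -1.08 (adjusted p = 0.0744), and for Mbp and Mobp it was -0.10 and 0.02. Directly between the injured groups, 7 of the 9 genes were called higher at day 14 than at day 1, where 17.6% of tested genes were called higher and 21.9% lower. These 7 did not include Mbp (log2 fold change 0.79, SE 0.40, edgeR adjusted p = 0.127) and Mobp (0.76, SE 0.41, adjusted p = 0.157). For both, TBI day 1 replicate 1 was as high as the day 14 samples. Without that sample all 9 were called, and the share of all tested genes called in that fit is not given here. With all samples, the largest change of the 9 genes was that of Padi2, at 2.14 (SE 0.19, edgeR adjusted p = 3.26e-06).

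The mean of each of the 9 genes was lowest in TBI day 1, and for Cnp, Mal, Ugt8 and Padi2 all 4 samples of that group lay below all other samples, a pattern found in 5.93% of all tested genes. Above it the order was sham day 1, TBI day 14 and sham day 14 for Mbp and Mobp, and sham day 1, sham day 14 and TBI day 14 for Mog, Mag and Cnp. For Cldn11 and Padi2 the order above TBI day 1 was sham day 14, sham day 1 and TBI day 14, for Mal sham day 14, TBI day 14 and sham day 1, and for Ugt8 TBI day 14, sham day 14 and sham day 1. Among those 3 groups neighbours overlapped, except TBI day 14 for Padi2, whose lowest value of 7.27 was above the highest sham value of 6.91.

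Other genes of myelin and mature oligodendrocytes gave a similar but not uniform picture. Of 32 tested genes of a list of 35, 13 were called lower and 2 higher at day 1, the list's median being -0.66 on the log2 scale. At day 14, 1 was called higher (Cd9, a tetraspanin, at 0.83). Among all tested genes, 7.93% were called lower and 11.2% higher at day 1, and 4.07% higher at day 14. Among the largest changes at day 1 were those of Klk6, a secreted protease of oligodendrocytes, which rose by 1.69 (SE 0.40, edgeR adjusted p = 0.0087), and Ermn, a cytoskeletal protein of myelin, which fell by 1.59 on the log2 scale (SE 0.30, adjusted p = 0.0021). Mcam, a cell adhesion molecule, was the other gene called higher, at 0.95.

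In the lists that follow, the number called lower at day 1 is to be read beside the 7.93% of all tested genes. A number called higher at day 1 is to be read beside 11.2%. Among 10 tested transcription factors of the lineage, Sox8 was called lower at day 1, at -0.59 (SE 0.17, edgeR adjusted p = 0.0247). Sox8 also differed between the sham groups, with the earlier shams above the later ones by 0.715 (edgeR adjusted p = 0.0115). Against sham day 14, TBI day 1 had 0 of the 10 factors called lower and 4 called higher, beside 21.0% and 25.0% of all tested genes. Sox8 was therefore called lower only against the 2 sham day 1 samples. Of 14 tested genes of oligodendrocyte precursors, 4 were called lower and 1 higher in TBI vs sham at day 1. Gpr17, a receptor of cells committed to differentiate, fell by 1.17 on the log2 scale (SE 0.33, edgeR adjusted p = 0.0235). Tnr, a matrix glycoprotein, fell by 0.96, and Bmp4, a secreted factor that holds back differentiation, by 0.83. Between the shams, Gpr17 and Bmp4 were higher at day 1 by 0.82 and 0.39, without a call (edgeR adjusted p = 0.0951 and 0.162). In TBI day 1 vs sham day 14, 4 of these 14 genes were called lower and 4 higher. Of 16 genes of galactolipid and sphingolipid synthesis, 2 were called lower at day 1, Ugt8 itself and Elovl7, a fatty acid elongase, at -1.40 (SE 0.42, adjusted p = 0.0304). Among 19 genes of cholesterol synthesis, which supplies a main lipid of myelin but runs in all cells, 3 were called lower at day 1 and 8 at day 14 (0.365% of all tested genes), when Hmgcs1 was at -0.91 (SE 0.15, adjusted p = 0.00194) and Cyp51 at -0.82.

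**Figure D4:**
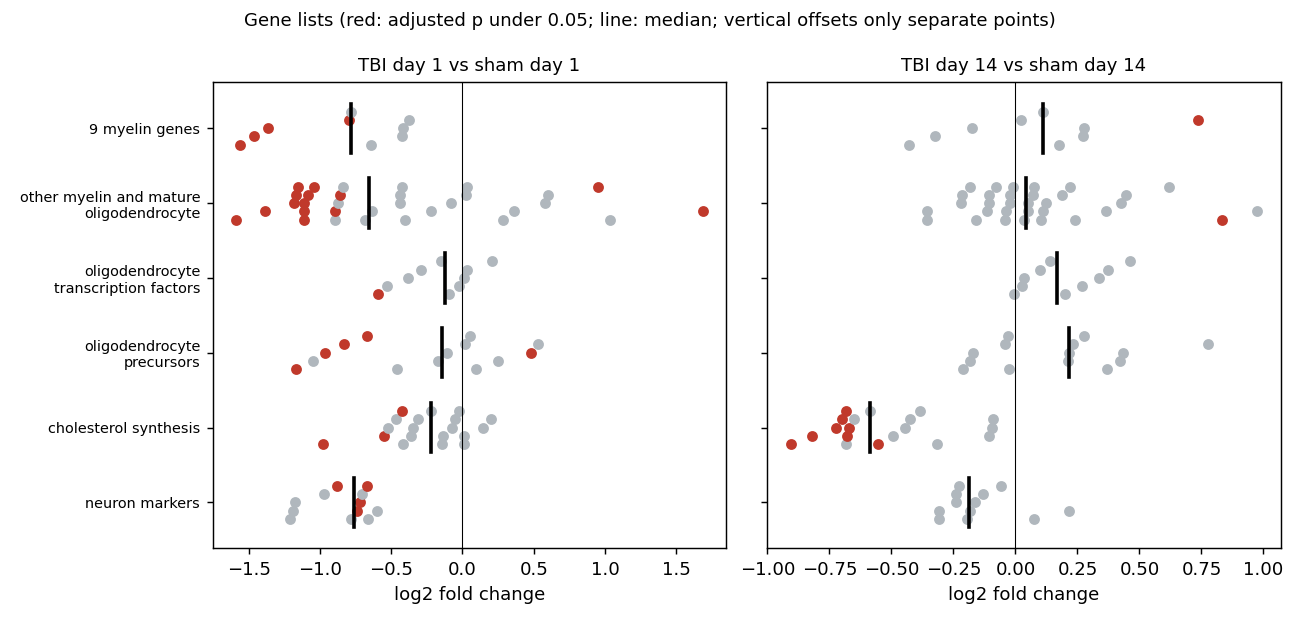
Log2 fold changes of single genes (points) in 6 gene lists, for TBI vs sham at day 1 on the left and at day 14 on the right, on horizontal axes of different scale; red points have an adjusted p under 0.05 in edgeR and black lines are list medians. The medians of the 9 myelin genes (-0.78) and of the neuron markers (-0.76) lie side by side at day 1, and red points at day 14 are mostly genes of cholesterol synthesis.

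Of 8 tested genes of nodes and paranodes, where the sheath ends on the axon, 3 were called lower at day 1, among them Cntn1 at -1.24 (SE 0.22, edgeR adjusted p = 0.00167) and Ank3 at -0.81, both made mainly by neurons. The other was Cntn2, at -0.635 (SE 0.213, adjusted p = 0.05 after rounding), which is also counted in the list of mature oligodendrocyte genes. Gldn, a secreted organizer of nodes best known from peripheral nerve, was called higher, at 3.40 (SE 0.32, adjusted p = 9.74e-06). Of the genes of peripheral myelin, Ncmap had no counts in any sample, while Pmp2, with 5 to 84 counts, was called higher at day 1 at 2.57 (SE 0.54, adjusted p = 0.00475) and Pmp22 at day 14 at 0.54 (SE 0.14, adjusted p = 0.0318).

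The genes most like the members over the 14 samples were ranked by Pearson's r of their log2 CPM with the mean of the 9 centred member values, among 10417 other genes with a mean log2 CPM above 2. Among the first 10 were Opalin, Wscd1, Nipal4, Mettl7a, Insc, Tspan2, Cntn2 and Scg3, with r from 0.987 to 0.946 and Spearman's rho from 0.833 to 0.974. Without TBI day 1 replicates 2 and 4, the samples farthest from the median, their r was 0.838 to 0.971, and with group means subtracted it was 0.836 to 0.967. They were picked as the highest of all candidates and the samples share their groups, so no p is given. Opalin, a membrane protein of oligodendrocytes, was at 7.24, 6.18, 6.92 and 5.78 log2 CPM in the TBI day 1 replicates and between 7.72 and 8.36 in all other samples.

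In 3 samples, genes of the choroid plexus, the secretory tissue beside the hippocampus, stood apart: the mean centred log2 CPM of 17 such genes was 5.07 in sham day 1 replicate 1, 4.26 and 2.41 in TBI day 14 replicates 3 and 2, and between -1.56 and -0.70 in the other samples. Their summed level ran from 235 to 11480 CPM in sham day 1 and from 144 to 166 in TBI day 1, and Otx2 of the same list was at 0 in every sample. Without these 3 samples, Mal, Ugt8 and Padi2 were called lower at day 1, at -1.46, -1.59 and -1.49 (edgeR adjusted p = 0.0317, 0.0283 and 0.0055), with the spread of the remaining sham day 1 sample taken from the other groups. Cnp was then at -0.59 (adjusted p = 0.213), and Padi2 at day 14 at 0.88 (adjusted p = 0.0653).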

How the data were processed

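Polyadenylated RNA was measured in 14 samples with stranded single-end reads of 50 bases. Per the labels and the study's methods, the authors aligned them to rn5 with STAR 2.4.2a and used featureCounts 1.5.0 to count them per UCSC gene; the deposited values are raw counts per gene symbol, and the strand setting of the counting is not given in the sources used here. The H3K4me3 peak lists (4 files) were not used. Samples were grouped by their labels, and replicates differed by more than counting noise.

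Counts were fitted in R 4.3.3 with edgeR 4.0.16 (TMM, the default filter by group, 1 mean per group over 14 samples, quasi-likelihood tests, two-sided). Benjamini-Hochberg adjustment ran over 12875 genes. The test was run on simulated data with 1 spread per gene shared by all groups, and the pass level was lowered after a first outcome. That check does not cover a wider spread in 1 group, as was seen here in TBI day 1. The alternatives were limma-voom (limma 3.58.1), DESeq2 1.42.0, median-of-ratios factors, other filters, fits of only the groups compared, a replicate block, a threshold of 0.01, a choroid plexus score as covariate and each sample left out; the fit without the 3 samples with high choroid plexus genes was chosen after seeing the data.

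Genes named beside the members are up to 3 per list, called at either day with the largest change, and the 10 most like the members; Cd9 and Mcam were named after their values were seen, and some genes under this rule are not reported here. The members and lists were chosen with earlier results of these data known. Counting depth was 15065540 to 23743703 per sample, and the lowest count of a member was 621. Promoters came from RefSeq (GRCr8). Python 3.11.15 and matplotlib 3.10.9 drew the figures.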

Additional observations from a re-analysis of the deposited data

Results flagged for a closer look

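The TBI effect differed between the days, by the test of that difference in edgeR, for Padi2 (day 1 minus day 14, -2.20 on the log2 scale, adjusted p = 0.00105) and for Mal (-1.67, adjusted p = 0.0371). The Mal call was lost in 11 of 14 fits without 1 sample, with adjusted p-values up to 0.0822. Padi2 was lower in 4 of 4 TBI samples than in both sham samples at day 1 and higher in 4 of 4 than in all sham samples at day 14. Mal was lower in 4 of 4 TBI samples at day 1 and overlapped sham at day 14. Of 27 groups of 4 values tested for a sample far from the others, 0 had one; chance marks about 1 in 20.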

How the results depend on the processing

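The day 1 calls of Mal and Padi2 and the Padi2 difference between days were kept under every alternative run. Members called lower at day 1 numbered 4, but 2 in a fit of only the groups compared and 2 at an adjusted p under 0.01, with 2 to 6 over fits without 1 sample (2 without sham day 1 replicate 2). At an adjusted p under 0.01, 0 were called higher at day 14, 1 in the difference, 4 lower in TBI day 1 vs sham day 14 and 4 higher in TBI day 14 vs TBI day 1. Only the groups compared gave 1 lower (Mobp) in sham day 1 vs sham day 14, and 6 lower in TBI day 1 vs sham day 14. The choroid plexus covariate gave 1 in the difference; without the 3 samples with high choroid plexus genes there were 0 higher at day 14 and 1 in the difference. Without 1 sample the counts were 0 to 1 higher at day 14, 1 to 3 lower in the difference, and 5 to 9 lower in TBI day 1 vs sham day 14. The shares of all tested genes called under these alternatives are not given here, so these counts are not set against a background. Values near 0 changed sign. For the difference, Mobp was at -0.28 with limma-voom and -0.10 with the covariate, and Mbp at 0.17 without the 3 samples; without 1 sample Mbp ran from -0.70 to 0.24 and Mobp from -0.70 to 0.30. For TBI vs sham at day 14, Ugt8 was at 0.077 without the 3 samples, and without 1 sample Mog ran from -0.086 to 0.11 and Mal from -0.064 to 0.25. For sham day 1 vs sham day 14, Cnp ran from -0.25 to 0.15, Cldn11 from -0.11 to 0.17, Ugt8 from -0.072 to 0.39 and Padi2 from -0.002 to 0.14. Except where fewer samples or a stricter threshold explain a lost call, the cause was not tested.

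The replicate numbers were not treated as pairs of rats. In deviations from the group means, same-numbered samples correlated between -0.348 and 0.243, over 0.1 in 5 of 18 pairs, and 3 of 14 samples correlated best with their own number. With 2 rats in sham day 1, the deviations of that group mirror each other. Such correlations cannot show that no batch was shared between samples of the same number. With the replicate block 5 members were called lower at day 1 and 1 was called higher at day 14. The share of all tested genes called with that block is not given here. The Mal difference had an edgeR adjusted p of 0.0577 with the block, the Mbp difference was 0.059 and Cnp in sham day 1 vs sham day 14 was 0.076. Sham day 1 had 2 rats, and the effect of depth on the calls was not tested.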
